A study of Homo sapiens with 20 samples.

Results

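The levels of 10 regulators of the switch from fetal to adult globin were followed in differentiating HUDEP-2 cells. They are the transcription factors BCL11A, ZBTB7A and SOX6, the nuclear receptors NR2C1 and NR2C2, and 5 proteins linked to the let-7 microRNAs, LIN28B, HMGA2, IGF2BP1, IGF2BP2 and IGF2BP3. The genes were picked by symbol, and the values of all transcripts with that symbol were summed. They make up 10 of 46425 genes and 91 of 170322 transcripts in the tables, and all 10 were among the 16784 genes with enough counts to be tested.

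HUDEP-2 is an erythroid progenitor line from human umbilical cord blood, immortalized with viral oncogenes under a doxycycline-inducible promoter. Wild-type cells were collected on day 0, before differentiation, and on days 1 to 8 and day 12 of differentiation, with 2 poly(A) RNA-seq libraries on every day. Cells grew in serum-free StemSpan SFEM with dexamethasone until day 0 and were then moved to IMDM that held human serum, holo-transferrin, insulin and heparin. Erythropoietin was in the medium throughout, stem cell factor was left out from day 6 and doxycycline from day 8. Each contrast against day 0, and each that spans day 6 or day 8, thus also spans a change of medium, and the stage and the medium cannot be told apart. All 20 libraries come from this line alone. Those of day 0 and day 8 are described as biological replicates, whereas for the other days the sources used here do not say whether the 2 libraries are separate cultures, so the spread between them may be technical.

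The library of each day that stands in the tables of separate days is called library A, and the library in the table of all days library B. Library A was drawn from separate tables for days 0 to 6, for days 7 and 8 and for day 12. A change within library A between these spans thus also crosses tables, and the part of the table in it was not tested. The letter does not name a replicate, and a term for the source table sets library B against library A. Library totals were 56968192 to 70358198 counts in A and 52131713 to 65377354 in B, and 3 counts, the limit that a count of 0 allows, are 0.0426 to 0.0575 CPM, the count set against the total of its library. This limit covers counting error only. Between the libraries of a day, 62.3% to 74.6% of genes with at least 10 counts differed beyond sampling noise, so the libraries of a day were not copies of each other. Library A of days 7 and 8 stood apart, with 17.6% and 16.8% of its counts in ribosomal RNA genes against at most 2.68% in the other 18 libraries. All 9 erythroid markers (ALAS2, SLC4A1, EPOR, TFRC, GATA1, AHSP, KEL, EPB42 and ANK1) were above 1 TPM in every library. Of the markers of other cells, MPO, ELANE, CTSG, PF4, PPBP and CD3E were at or near 0, whereas the mast cell tryptase TPSAB1 was at 1009 and 527 TPM on day 0 and at most 0.662 TPM on day 12, with the other mast cell genes, CPA3 and MS4A2, at no more than 6.04 and 8.00 TPM. The neutrophil and monocyte marker LYZ was at no more than 1.19 TPM and the macrophage marker CD14 at no more than 0.448 TPM. ITGA2B, an integrin of megakaryocytes and early progenitors, was at 68.9 TPM in library A and 10.7 TPM in library B on day 0. TPSAB1 and ITGA2B moved with the day and the library, and their part in the results was not tested.

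Globin genes are expressed in a developmental order along the beta-globin cluster, and adult erythroid cells keep the gamma-globin genes HBG1 and HBG2 silent. BCL11A and ZBTB7A bind the gamma-globin promoters and recruit corepressors such as the NuRD complex, SOX6 acts with BCL11A, and NR2C1 with NR2C2 forms the DNA-binding core of a further repressor complex. In fetal cells LIN28B blocks the maturation of let-7 microRNAs, which otherwise lower HMGA2 and the IGF2BP proteins, and IGF2BP proteins in turn bind mRNAs and can lower BCL11A protein. Because BCL11A is also controlled at translation, an mRNA level is not a protein level.

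Let-7 microRNAs pair with mRNAs through the seed, bases 2 to 8 from their 5′ end. In RefSeq (GRCh38.p14) the 9 mature sequences let-7a, b, c, d, e, f, g and i and miR-98 share the seed GAGGUAG, and 3 are shown with the seed in capitals to let it be compared with the mRNAs. They lie at chr9:94175962-94175983 (plus strand), chr22:46113691-46113712 (plus strand) and chrX:53556299-53556320 (minus strand).
let-7a-5p: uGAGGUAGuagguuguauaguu
let-7b-5p: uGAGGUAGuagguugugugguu
miR-98-5p: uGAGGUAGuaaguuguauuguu

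The reverse complement of the seed, CTACCTC, was searched on the transcript strand of the 3′ UTR of each member's canonical GENCODE transcript, with overlaps allowed. HMGA2 held 4 matches in 2999 bases, LIN28B 4 in 4549 bases and IGF2BP1 4 in 6701 bases, whereas IGF2BP2 held 1 in 2401 bases and IGF2BP3 1 in 2153 bases. BCL11A, ZBTB7A, SOX6, NR2C1 and NR2C2 held none. Of 19229 canonical 3′ UTRs 9.71% held at least 1 match. Among 3′ UTRs within 20% of the same length as that of HMGA2, 14.2% held a match and 0.0904% held 4 or more. The same shares were 22.9% and 0.196% at the length of LIN28B and 32.9% and 0.533% at that of IGF2BP1. At the lengths of IGF2BP2 and IGF2BP3 12.8% and 12.3% held at least 1 match. The 5 let-7-linked members were chosen for that link, so their matches are a description, and a match is not shown here to be a working site. The matches with the lowest position in HMGA2, LIN28B and IGF2BP1 and the matches of IGF2BP2 and IGF2BP3 are shown 5′ to 3′ with the 7 matching bases in capitals. Their positions in GRCh38 are chr12:65963298-65963323 (plus strand), chr6:105078812-105078837 (plus), chr17:49051061-49051086 (plus), chr3:185644217-185644242 (minus) and chr7:23311792-23311817 (minus), each within the 3′ UTR.
HMGA2: gccaacgttcgatttCTACCTCagca
LIN28B: acccggttgcaaagtCTACCTCatgc
IGF2BP1: tgtgtgcgaagtaaaCTACCTCaagg
IGF2BP2: aacacacagaagaagCTACCTCaggt
IGF2BP3: tgcatttttactcaaCTACCTCaggt

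Levels are TPM (transcript abundance corrected for length and set against the whole library), and changes are log2 fold changes (log2 FC) of counts scaled with the TMM method in edgeR, tested with its quasi-likelihood test in 1 fit of the 20 libraries, with n = 2 libraries a day and Benjamini-Hochberg adjustment over 16784 genes. The scales part late in the course. Globin genes took 0.859% and 0.819% of the counts on day 0 and 28.2% and 33.7% on day 12, and the TMM factors were 1.17 in both libraries of day 0 and 0.544 and 0.464 on day 12. The median log2 FC of all genes was 0 from day 0 to day 8 and -0.20 from day 8 to day 12 with TMM, -0.36 and -1.02 with library totals alone, and -0.34 and -0.68 on log2(TPM + 1). A change is therefore relative to the bulk of genes. In a bulk library fewer cells with a transcript and less of it per cell cannot be told apart.

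**Figure D1:**
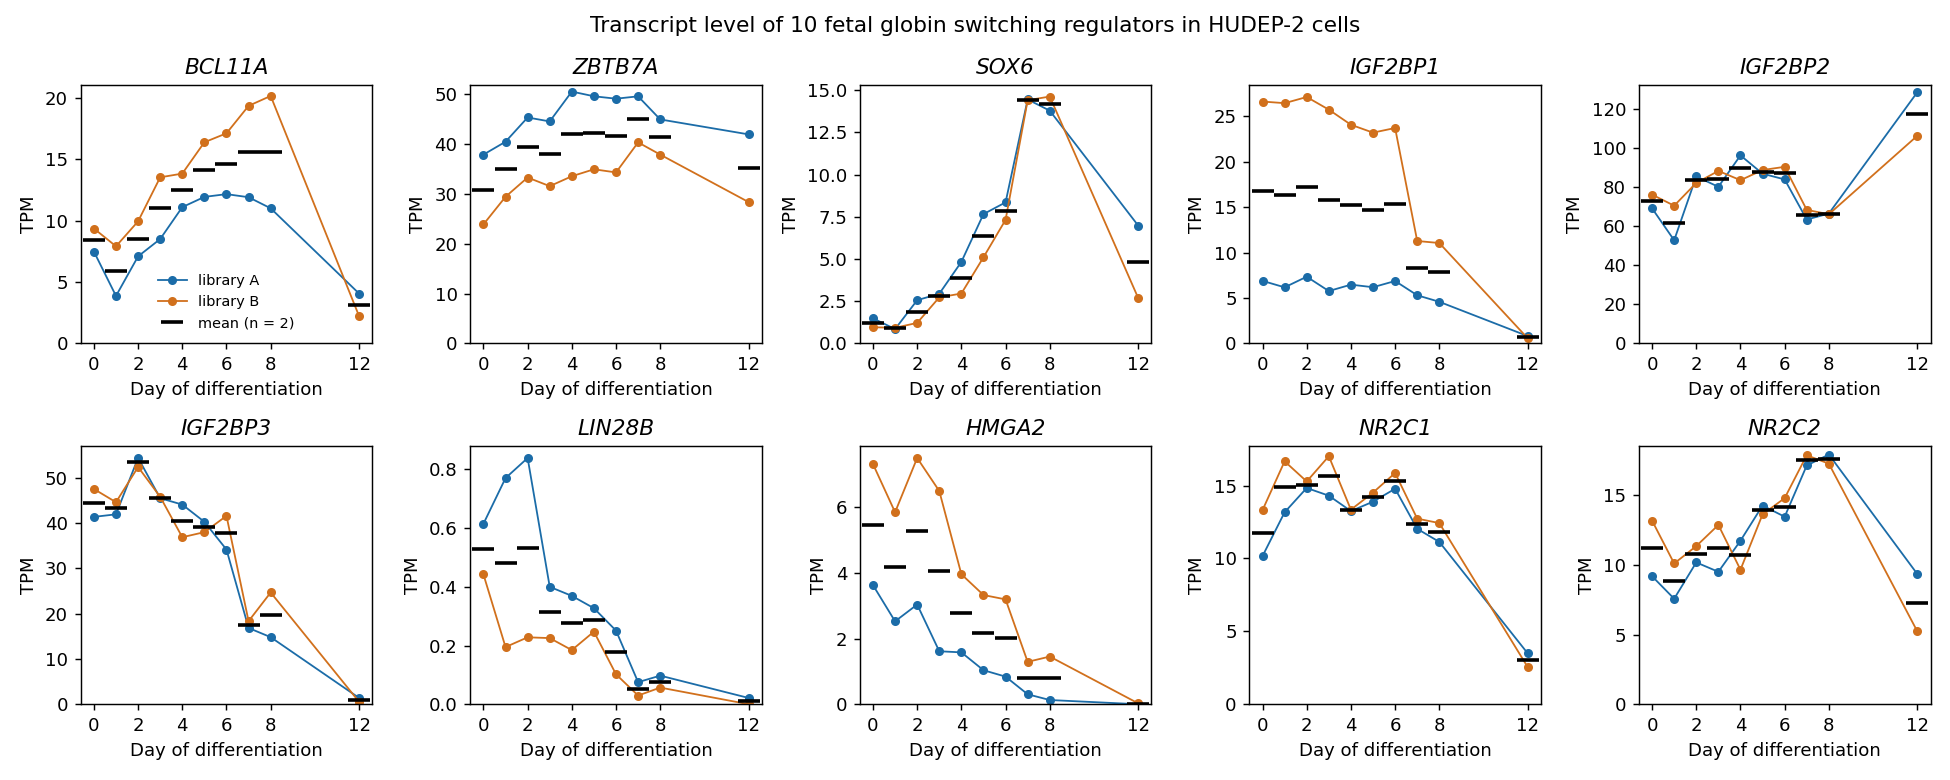
TPM of the 10 regulators (y axis, linear from 0) against the day of differentiation (x axis), with a point for every library, lines joining libraries of the same letter (A or B) and a bar at the mean of the 2 libraries of a day. SOX6 goes from 1.49 and 0.96 TPM on day 0 to 13.8 and 14.6 TPM on day 8, LIN28B and HMGA2 are at most 0.0274 TPM on day 12, and IGF2BP1 stands several times higher in library B than in library A on days 0 to 6.

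BCL11A, the zinc-finger repressor of the gamma-globin genes, rose from day 0 to day 8 and fell from day 8 to day 12. Its transcripts (gene 53335) span chr2:60450520-60553654 of hg38. On days 0 to 8 and 12, in that order, BCL11A was at 7.49, 3.88, 7.10, 8.51, 11.1, 11.9, 12.2, 11.9, 11.0 and 4.07 TPM in library A and at 9.37, 7.92, 9.96, 13.5, 13.8, 16.4, 17.1, 19.4, 20.2 and 2.24 TPM in library B. The day 8 libraries were both above the day 0 libraries, and B was above A on 9 of the 10 days. The log2 FC of day 8 against day 0 was 1.51 (SE 0.36, adjusted p = 0.00579), with 1.29 in library A and 1.67 in library B. On log2(TPM + 1) with limma the value was 0.77 (adjusted p = 0.121), and over all alternatives the adjusted p ran from 0.000351 to 0.129. Without library A of day 0 it was 1.39 (adjusted p = 0.0549). Between day 8 and day 12 BCL11A fell by 0.97 on the log2 scale (SE 0.36, adjusted p = 0.0332), with -0.34 in library A and -1.62 in library B. Without library B of day 12 this value was -0.69 and without library B of day 8 it was -0.64, and neither passed the test (adjusted p = 0.233 and 0.246, range over the alternatives 0.000309 to 0.246). The call was also lost with DESeq2 (-0.80, adjusted p = 0.0559), upper-quartile scaling (-0.79, adjusted p = 0.061) and only the days compared (-0.91, adjusted p = 0.0572), whereas the fall was larger with library totals (-1.82, adjusted p = 0.00215), on log2(TPM + 1) (-1.98, adjusted p = 0.000541) and on log2(TPM + 0.1) (-2.27, adjusted p = 0.000309). Days 4 to 6 against day 0 gave 0.89 (SE 0.31, adjusted p = 0.0665), which passed with DESeq2 (0.88, adjusted p = 0.0234) and with a term for the source table (0.88, adjusted p = 0.00886; range over the alternatives 0.00886 to 0.362).

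The tables hold 12 BCL11A transcripts, which end at different 3′ positions. NM_022893, the RefSeq transcript of the longest protein form, BCL11A-XL, ends at position 60457194 of chromosome 2, as 6 predicted or alternative transcripts do, and NM_018014 and NM_138559, of the shorter forms, end at 60450520. Transcripts with the end of NM_022893 made up 71.2, 61.2, 78.7, 77.0, 71.7, 73.7, 72.4, 77.3, 77.9 and 73.9% of BCL11A TPM in library A and 68.5, 70.7, 76.6, 77.4, 79.1, 77.1, 80.1, 86.1, 84.3 and 52.4% in library B on days 0 to 8 and 12. On day 0 the mean share was 69.8 ± 1.90% (SD, n = 2) and on day 8 it was 81.1 ± 4.53%. Library A was at 78.7% on day 2 and 77.9% on day 8, and library B at 76.6% and 84.3%. The grouping by end was made after the values were seen, and the shares were not tested. NM_022893 alone was at 9.83 ± 1.93% on day 0 and 40.5 ± 1.45% on day 8, but its share in the libraries between ran from 3.86% to 38.7%. None of the 12 transcripts passed edgeR's test between day 8 and day 0, where 2.04% of 75285 transcripts did (0.914% higher and 1.13% lower), or between day 12 and day 8, where 14.2% did (2.85% higher and 11.4% lower). In edgeR NM_022893 had a log2 FC of 3.41 (SE 0.91, adjusted p = 0.0886) from day 0 to day 8 and was the only one with an unadjusted p under 0.05, whereas from day 8 to day 12 there were 0. DESeq2 called 1 of the 12 in the first comparison and 0 in the second. In edgeR the number in the second also depended on library A of day 12. The share of all transcripts called in these other fits was not counted, so their counts are not read as a result on BCL11A. The transcripts overlap and differ in length, so the shares rest on how StringTie divided the reads among them.

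**Figure D2:**
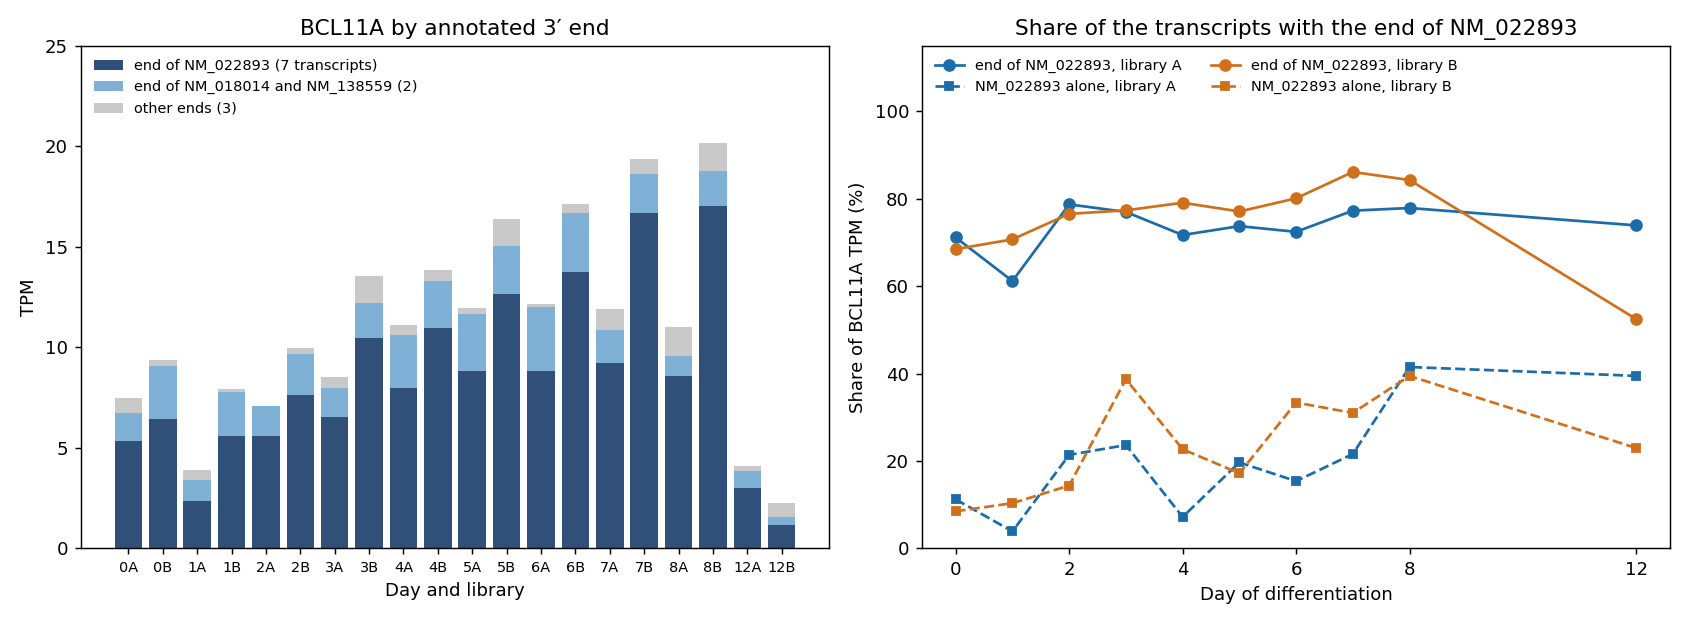
Left, BCL11A TPM in each library (x axis, day and library) stacked by the annotated 3′ end of the transcript. Right, the share of BCL11A TPM (y axis, %) held by the 7 transcripts with the end of NM_022893 (circles) and by NM_022893 alone (squares) against the day. The class with the end of NM_022893 holds between 52.4% and 86.1% of BCL11A TPM in every library, while the share of NM_022893 alone runs from 3.86% to 41.5%.

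ZBTB7A (LRF), also a repressor at the gamma-globin promoters, was higher on day 8 than on day 0. Its 4 transcripts (gene 51341) span chr19:4043303-4066899. On days 0 to 8 and 12 ZBTB7A was at 37.8, 40.4, 45.3, 44.5, 50.5, 49.5, 49.1, 49.5, 44.9 and 41.9 TPM in library A and at 23.9, 29.4, 33.3, 31.5, 33.5, 34.9, 34.3, 40.3, 37.9 and 28.3 TPM in library B. Library A was above B on every day, and the libraries of day 0 and day 8 touched, since library A of day 0 and library B of day 8 were at about the same level. The log2 FC of day 8 against day 0 was 1.02 (SE 0.36, adjusted p = 0.0387), with 0.93 in library A and 1.16 in library B. It was 0.44 on log2(TPM + 1) (adjusted p = 0.268), and without library B of day 0 or library A of day 8 it was 0.69 and 0.74 (adjusted p = 0.255 and 0.245, range over the alternatives 1.58e-05 to 0.268). It also did not pass with library totals (0.62, adjusted p = 0.172) or only the days compared (1.04, adjusted p = 0.0691). With a term for the source table it was 1.04 (adjusted p = 1.58e-05). Days 4 to 6 against day 0 gave 0.60 (adjusted p = 0.207) and passed only with this term among the alternatives of scale, filter and model (0.61, adjusted p = 0.000705). The same held for day 8 against days 4 to 6, with 0.43 (adjusted p = 0.302) and 0.43 with the term (adjusted p = 0.00408). Day 12 against day 8 gave 1.16 (SE 0.36, adjusted p = 0.0131) on the TMM scale, whereas TPM was lower in both libraries and limma on log2(TPM + 1) gave -0.25 (adjusted p = 0.523; range over the alternatives 1.32e-06 to 0.523). With library totals it was 0.36 (adjusted p = 0.375), and without library B of day 8 or library A of day 12 it was 0.91 and 1.05 (adjusted p = 0.113 and 0.0582).

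SOX6, an SRY-box factor that acts with BCL11A at the beta-globin cluster, showed the largest increase of the 10 genes from day 0 to day 8. Its 6 transcripts (gene 55553) span chr11:15966449-16738477. On days 0 to 8 and 12 SOX6 was at 1.49, 0.853, 2.56, 2.95, 4.83, 7.66, 8.36, 14.5, 13.8 and 6.99 TPM in library A and at 0.963, 0.930, 1.22, 2.73, 2.96, 5.10, 7.32, 14.4, 14.6 and 2.70 TPM in library B. Both libraries climbed from day 3 to day 7, and those of days 7 and 8 were above those of every other day. The log2 FC was 2.39 (SE 0.37, adjusted p = 0.000811) for days 4 to 6 against day 0, 1.73 (SE 0.29, adjusted p = 0.00161) for day 8 against days 4 to 6 and 4.12 (SE 0.44, adjusted p = 1.74e-05) for day 8 against day 0. These 3 calls held under each of the alternatives run, with a highest adjusted p of 0.0198, 0.0421 and 0.00512. Day 12 against day 8 gave -0.19 (SE 0.38, adjusted p = 0.71), with 0.13 in library A and -0.66 in library B, and on log2(TPM + 1) it was -1.48 (adjusted p = 0.00169; range over the alternatives 0.00169 to 0.996).

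NR2C1 (TR2) and NR2C2 (TR4), orphan nuclear receptors that bind direct repeats in the gamma-globin and epsilon-globin promoters as a pair, were at like levels on day 0, and NR2C2 was the higher on day 8. NR2C1 (gene 7181, 16 transcripts, chr12:95020229-95073618) had TPM values in libraries A and B of 10.2 and 13.3 (day 0), 14.8 and 15.9 (day 6), 11.1 and 12.4 (day 8) and 3.49 and 2.55 (day 12). NR2C2 (gene 7182, 13 transcripts, chr3:14947583-15049273) had 9.19 and 13.2 (day 0), 13.5 and 14.8 (day 6), 17.9 and 17.3 (day 8) and 9.35 and 5.24 (day 12). The pair began at similar levels, and by day 8 NR2C2 was above NR2C1 in both libraries. NR2C2 rose from day 0 to day 8 with a log2 FC of 1.27 (SE 0.19, adjusted p = 0.00026), of which 0.89 (SE 0.15, adjusted p = 0.00158) fell between days 4 to 6 and day 8. The latter did not pass on log2(TPM + 1) (0.43, adjusted p = 0.11) or log2(TPM + 0.1) (0.46, adjusted p = 0.121), nor without library A of day 8 (0.72, adjusted p = 0.0656; range over the alternatives 2.13e-06 to 0.121). The former kept its call under every alternative but limma on log2(TPM + 0.1), where it was 0.67, and was 0.63 on log2(TPM + 1) (adjusted p = 0.0529 and 0.0476; range over the alternatives 7.27e-09 to 0.0529). For NR2C1 the log2 FC was 0.61 (SE 0.13, adjusted p = 0.00271) from day 0 to day 8, but 0.23 (adjusted p = 0.314) with library totals and 0.01 (adjusted p = 0.966) on log2(TPM + 1), with a range over the alternatives of 1.69e-05 to 0.967, and the call was also lost with only the days compared (0.62, adjusted p = 0.0796). Days 4 to 6 against day 0 gave 0.44 for NR2C1 (SE 0.11, adjusted p = 0.0138), a call lost without library A of day 0 (0.31, adjusted p = 0.252), with library totals (0.37, adjusted p = 0.102), on log2(TPM + 1) (0.27, adjusted p = 0.211), on log2(TPM + 0.1) (0.29, adjusted p = 0.248) and with no filter beyond 1 count (0.44, adjusted p = 0.0969). From day 8 to day 12 NR2C1 fell by 0.47 (SE 0.13, adjusted p = 0.00661), a call that was lost with upper-quartile scaling (-0.29, adjusted p = 0.0654) and with only the days compared (-0.41, adjusted p = 0.194; range over the alternatives 8.93e-07 to 0.194). The value was -1.30 with library totals (adjusted p = 1.73e-05) and -1.68 on log2(TPM + 1) (adjusted p = 1.91e-06). NR2C2 had a log2 FC of 0.12 (SE 0.19, adjusted p = 0.639) that turned to -0.69 with library totals (adjusted p = 0.0141) and -1.21 on log2(TPM + 1) (adjusted p = 0.000656; range over the alternatives 0.000569 to 0.965). The difference between the courses of NR2C1 and NR2C2 was not tested.

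LIN28B, the RNA-binding protein that keeps let-7 from maturing, had the lowest mean TPM of the 10 genes on days 0, 8 and 12, and its day 8 level did not pass the test against day 0. Its 3 transcripts (gene 389421, chr6:104936999-105083332) together had 95 and 73 counts on day 0, 147 and 33 on day 2, 20 and 9 on day 8 and 6 and 0 on day 12 in libraries A and B. On days 0 to 8 and 12 LIN28B was at 0.615, 0.770, 0.839, 0.400, 0.369, 0.327, 0.251, 0.0752, 0.0974 and 0.0214 TPM in library A and at 0.442, 0.195, 0.228, 0.225, 0.184, 0.247, 0.102, 0.0296, 0.0568 and 0 TPM in library B. Both libraries of day 8 were below both of day 0, and B was below A on every day. The log2 FC of day 8 against day 0 was -2.13 (SE 0.99, adjusted p = 0.106) and did not pass. It passed on log2(TPM + 1) (-0.50, adjusted p = 0.0404), and with a term for the source table it was -2.25 (SE 0.55, adjusted p = 0.00421), and the adjusted p over the alternatives ran from 0.00421 to 0.326. Within the sets the value was -1.88 in library A and -2.27 in library B.

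HMGA2, a chromatin protein expressed in fetal stem cells and a classic let-7 target, was lower on day 8 than on day 0 in both libraries without passing the test. From day 8 to day 12 HMGA2 fell at low counts, a call that was lost under several alternatives. Its 5 transcripts (gene 8091) span chr12:65824460-65966291. On days 0 to 8 and 12 HMGA2 was at 3.63, 2.53, 3.04, 1.61, 1.58, 1.04, 0.841, 0.303, 0.129 and 0 TPM in library A and at 7.32, 5.85, 7.50, 6.50, 3.96, 3.33, 3.19, 1.29, 1.45 and 0.0274 TPM in library B. Library B was above A on all 10 days, and both libraries of day 8 were below both of day 0. Day 8 against day 0 gave -2.28 (SE 1.13, adjusted p = 0.129), which did not pass, with -3.86 in library A and -1.82 in library B. With a library left out the value ran from -4.48 (without library B of day 8) to -1.44. On log2(TPM + 1) it was -1.90 (adjusted p = 0.0301), and with a term for the source table it was -2.69 (SE 0.43, adjusted p = 0.000169; range over the alternatives 0.000169 to 0.46). With the same term HMGA2 already passed for days 4 to 6 against day 0, with -1.29 (SE 0.30, adjusted p = 0.00588), against -1.11 (SE 0.82, adjusted p = 0.42) without it. Counts were 22 and 171 on day 8 and 0 and 7 on day 12. From day 8 to day 12 HMGA2 fell by 3.92 (SE 1.45, adjusted p = 0.0331), a size that is uncertain at such low counts. Without library B of day 8 the value was -1.73 and without library A of day 12 it was -2.91, and neither passed (adjusted p = 0.405 and 0.178, range over the alternatives 0.000155 to 0.405). Without library B of day 12, which leaves the day 12 library with 0 counts, the fitted value was -9.91 (adjusted p = 0.0379). The call was also lost on log2(TPM + 1) (-0.71, adjusted p = 0.372), on log2(TPM + 0.1) (-2.40, adjusted p = 0.0517) and with only the days compared (-3.83, adjusted p = 0.0714).

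The 3 IGF2BP paralogs, RNA-binding proteins that stabilize mRNAs or hold back their translation, differed in level. IGF2BP2 rose and IGF2BP3 fell from day 8 to day 12, and IGF2BP1 did not pass. IGF2BP1 (gene 10642, 5 transcripts, chr17:48997385-49056145) was at 6.89, 6.18, 7.35, 5.77, 6.48, 6.19, 6.88, 5.31, 4.59 and 0.815 TPM in library A and at 26.6, 26.5, 27.1, 25.7, 24.1, 23.2, 23.7, 11.3, 11.1 and 0.572 TPM in library B on days 0 to 8 and 12. Library B held at least 3.45 times the TPM of library A on days 0 to 6 and 2.13 and 2.41 times on days 7 and 8, and on day 12 both were below 1 TPM. Day 8 against day 0 gave -0.53 (SE 0.98, adjusted p = 0.708), with 0.11 in library A and -0.77 in library B, and with the source table as a term it was -0.32 (SE 0.38, adjusted p = 0.519). From day 8 to day 12 it was -2.02 (SE 1.03, adjusted p = 0.11) and did not pass, while with library totals it fell by 2.90 (adjusted p = 0.0312) and with the term IGF2BP1 fell by 1.79 (SE 0.41, adjusted p = 0.00159; range over the alternatives 0.00159 to 0.35). This step also passed with only the days compared (-1.96, adjusted p = 0.00627), on log2(TPM + 0.1) with limma (-3.21, adjusted p = 0.0163) and with no filter beyond 1 count (-2.07, adjusted p = 0.0476). IGF2BP1 was lower on day 12 than on day 8 in both libraries.

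IGF2BP2 (gene 10644, 20 transcripts, chr3:185643130-185825046) had the highest TPM of the 10 genes on days 0, 8 and 12 and rose after day 8. It was at 69.0, 52.7, 85.3, 80.0, 96.1, 86.7, 83.8, 63.3, 66.4 and 128 TPM in library A and at 76.0, 70.4, 82.0, 88.1, 83.4, 88.6, 90.2, 68.2, 66.0 and 106 TPM in library B. The day 12 libraries were above all others. Between day 8 and day 12 IGF2BP2 rose by a log2 FC of 2.07 (SE 0.12, adjusted p = 8.63e-09), with 1.99 in library A and 2.15 in library B, and this call held under every alternative run, with a highest adjusted p of 0.00107. The size depended on the scale, with 1.24 by library totals and 0.81 on log2(TPM + 1). Smaller changes depended on the scale: day 8 against day 0 gave 0.48 (SE 0.11, adjusted p = 0.00547) and -0.13 on log2(TPM + 1) (adjusted p = 0.476; range over the alternatives 8.98e-05 to 0.635) and passed neither with library totals (0.10) or only the days compared (0.49) nor without library B of day 0 (0.43) or library A of day 8 (0.42), and days 4 to 6 against day 0 gave 0.35 (SE 0.10, adjusted p = 0.0221), which passed neither with library totals (0.29, adjusted p = 0.138) nor on log2(TPM + 1) (0.28, adjusted p = 0.112; range over the alternatives 0.000823 to 0.196), nor without either library of day 0. Day 8 against days 4 to 6 gave 0.13 (SE 0.09, adjusted p = 0.353) but passed in the opposite direction on log2(TPM + 1) (-0.41, adjusted p = 0.0146; range over the alternatives 0.0146 to 0.875). The shorter predicted transcript XM_017005561, whose last base lies at 185656321 inside the gene, had 3 to 96 counts on days 0 to 8 and 1873 and 2838 counts on day 12. It held 0.0497% to 2.38% of IGF2BP2 TPM before and 15.6% and 23.9% on day 12. This transcript was picked after its values were seen and was not tested.

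IGF2BP3 (gene 10643, 7 transcripts, chr7:23310209-23470674) was second only to IGF2BP2 on day 0 and fell late. It was at 41.4, 41.9, 54.4, 45.5, 44.1, 40.3, 34.2, 16.8, 14.8 and 1.40 TPM in library A and at 47.5, 44.6, 52.4, 45.8, 36.9, 38.0, 41.6, 18.3, 24.7 and 0.545 TPM in library B. Both libraries of day 7 were below both of day 6, and those of day 12 were below all others. IGF2BP3 fell by 0.59 (SE 0.18, adjusted p = 0.0331) from days 4 to 6 to day 8. It fell by 2.90 (SE 0.23, adjusted p = 2.12e-07) from day 8 to day 12, with -2.32 in library A and -3.59 in library B for this step. The late fall held under every alternative run, with a highest adjusted p of 0.00185. The first did not pass without library A of day 4, 5 or 8 or library B of day 6, and was smallest without library A of day 8 (-0.42, adjusted p = 0.395, range over the alternatives 0.00171 to 0.395), and for day 8 against day 0 the log2 FC of -0.62 (SE 0.21, adjusted p = 0.0371) did not pass without either library of day 0 and became -0.45 without library A of day 8 (adjusted p = 0.248, range over the alternatives 0.00106 to 0.248). It did not pass with only the days compared (-0.60, adjusted p = 0.0711), and was larger with library totals (-0.98, adjusted p = 0.015) and on log2(TPM + 1) (-1.17, adjusted p = 0.00106). The fall from days 4 to 6 to day 8 was -0.99 on log2(TPM + 1) (adjusted p = 0.00171).

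Taken by comparison, 3 of the 10 genes passed for days 4 to 6 against day 0 (SOX6, IGF2BP2 and NR2C1, all higher), where 16.6% of all genes passed, 7.38% higher and 9.22% lower. For day 8 against days 4 to 6, SOX6 and NR2C2 were higher and IGF2BP3 lower, where 22.7% of all genes passed, 11.9% higher and 10.8% lower. Day 8 against day 0 gave 6 higher (BCL11A, ZBTB7A, SOX6, IGF2BP2, NR2C1 and NR2C2), 1 lower (IGF2BP3) and 3 that did not pass, beside 37.1% of all genes, of which 17.7% were higher and 19.4% lower. The median log2 FC of the 10 was 0.54 and that of all genes 0. On log2(TPM + 1) SOX6 and NR2C2 were called higher and IGF2BP3, LIN28B and HMGA2 lower in this comparison. On that scale 1223 of all 16784 genes were higher and 6660 lower. With library totals BCL11A, SOX6 and NR2C2 were called higher and IGF2BP3 lower, beside 1538 higher and 4684 lower genes. Day 12 against day 8 gave 2 higher (ZBTB7A and IGF2BP2), 4 lower (BCL11A, IGF2BP3, HMGA2 and NR2C1) and 4 that did not pass, beside 57.2% of all genes, with 23.8% higher and 33.4% lower, and medians of -0.72 and -0.20. On log2(TPM + 1) IGF2BP2 alone was called higher in this step, and BCL11A, SOX6, IGF2BP3, NR2C1 and NR2C2 were called lower. On that scale 1407 of all 16784 genes were higher and 8997 lower. A difference between any of the 10 days was called for 7 of the 10, with IGF2BP1, LIN28B and HMGA2 outside, where 66% of all genes were called. With the source table as a term 6, 6, 9 and 7 of the 10 passed in the 4 comparisons in this order, beside 4809, 6104, 8106 and 10775 of all 16784 genes, and for any day all 10 passed, IGF2BP1, LIN28B and HMGA2 included, beside 12708 of all genes. DESeq2 called 9 of the 10 for any day, beside 11861 of all 16784 genes. Without library A of day 8, 1 of the 10 passed for day 8 against days 4 to 6 and 4 for day 8 against day 0, beside 464 and 3568 of 17612 genes, so the calls over all genes also fell.

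**Figure D3:**
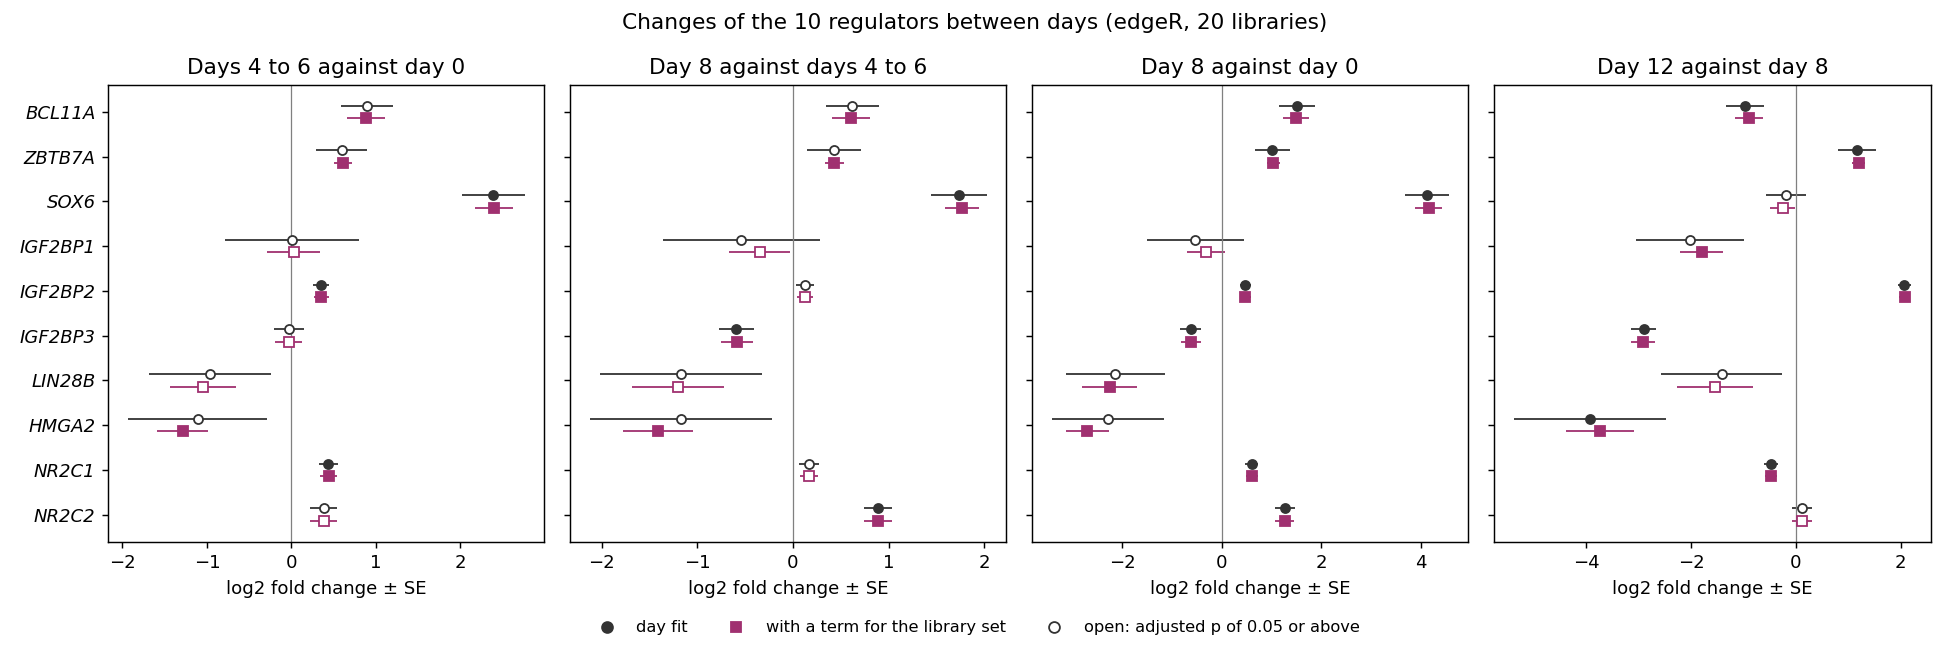
Log2 fold change with its standard error (x axis) of each regulator (y axis) in 4 comparisons, from the edgeR fit with a term for each day (black circles) and with a further term for the source table of the library (purple squares). Filled symbols have an adjusted p under 0.05. With the source table as a term the standard errors of ZBTB7A, IGF2BP1 and HMGA2 shrink the most in proportion, and SOX6 lies right of 0 in the first 3 panels.

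The difference between library B and library A was itself large for several of the regulators. It was tested as the coefficient of the source table in the fit with both terms, a test added after the values were seen. IGF2BP1 was higher in B by a log2 FC of 1.53 (SE 0.18, adjusted p = 5.36e-05), HMGA2 by 1.65 (SE 0.19, adjusted p = 5.07e-05) and BCL11A by 0.40 (SE 0.12, adjusted p = 0.0178). LIN28B was lower in B by a log2 FC of -1.27 (SE 0.25, adjusted p = 0.0018), ZBTB7A by -0.54 (SE 0.06, adjusted p = 2.17e-05) and SOX6 by -0.50 (SE 0.11, adjusted p = 0.00334). IGF2BP2, IGF2BP3, NR2C1 and NR2C2 did not pass. So 6 of the 10 were called, 3 higher and 3 lower in B, where 32.7% of all genes were, 15.5% higher and 17.2% lower. The gap was not the same on each day. For IGF2BP1 it was between 1.61 and 2.04 on days 0 to 6 and -0.10 on day 12 on the log2 scale, and for BCL11A it turned from 0.63 on day 8 to -0.66 on day 12. Whether culture, library preparation or sequencing set the libraries apart was not tested.

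**Figure D4:**
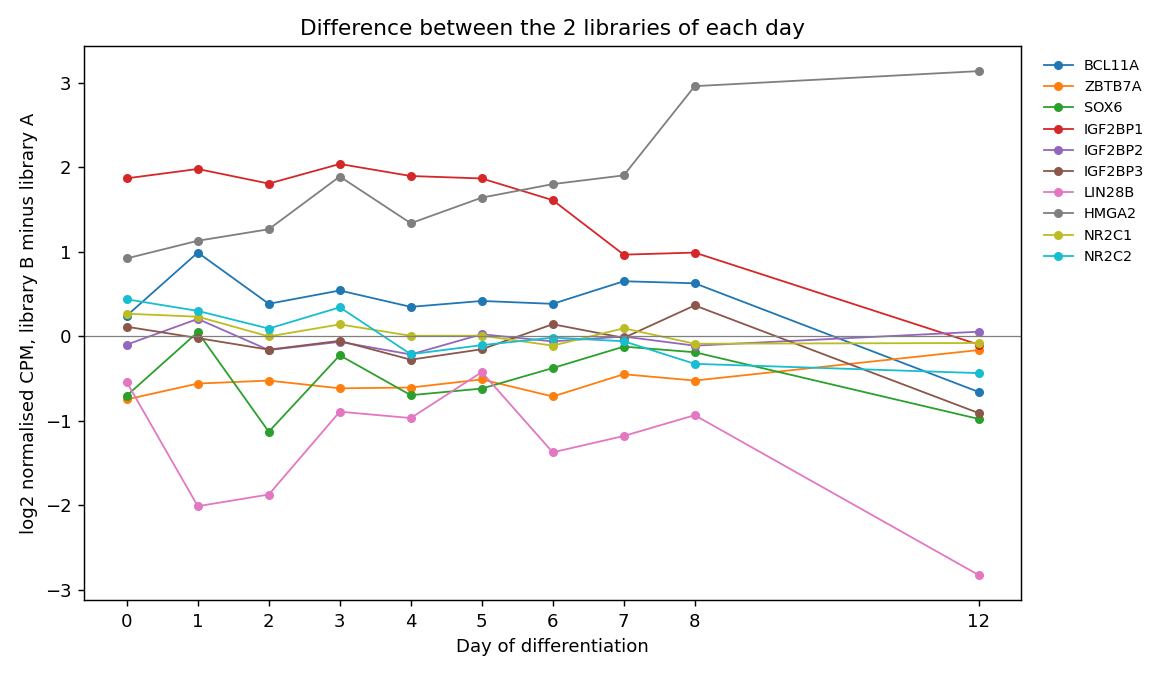
Difference in log2 normalised CPM (prior count of 2) between library B and library A (y axis) on each day (x axis) for the 10 regulators. HMGA2 lies above 0 and LIN28B and ZBTB7A below 0 on every day, IGF2BP1 lies above 1.5 until day 6, and IGF2BP2 stays within 0.25 of 0.

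Partners of the repressors were read from gene lists. Of the 13 NuRD genes, whose products form the deacetylase and remodelling complex bound by BCL11A and ZBTB7A, 1 was higher on day 8 than on day 0 (RBBP4, a histone chaperone, log2 FC 0.64) and 5 were lower, among them MTA3 (-1.45) and the remodelling ATPase CHD3 (-1.33), beside 17.7% and 19.4% of all genes. The median of the list was -0.34 against 0 for all genes. In TPM, RBBP4 was at 54.2 and 69.7 on day 0 and at 51.8 and 77.0 on day 8, and the other NuRD genes were lower on day 8 in both libraries. On log2(TPM + 1) 1223 of all genes were called higher and 6660 lower in this comparison. From day 8 to day 12 all 13 passed, where 57.2% of all genes did (33.4% lower and 23.8% higher). Of the 13, 10 were lower with MTA3 (-3.97) and the histone chaperone RBBP7 (-3.26) in the lead, and 3 higher with GATAD2A (1.27) and GATAD2B (1.17). On log2(TPM + 1) GATAD2A and GATAD2B were at -0.17 and -0.26, and of the 13 none was higher and 11 were lower. On that scale 1407 of all 16784 genes were higher and 8997 lower in the step from day 8 to day 12. Among 9 other corepressors, RCOR1 was higher (0.71) and PRMT5, an arginine methyltransferase (-1.68), and KDM1A, a histone demethylase also called LSD1 (-0.99), were lower on day 8 than on day 0. The DNA methyltransferase DNMT1 had the largest change of this list from day 8 to day 12 (-6.21, adjusted p = 4.59e-10), from 100 and 158 TPM to 0.823 and 0.459 TPM, followed by KDM1A (-2.75). NCOR1 (0.72) and RCOR1 (0.53) were higher in that step and turned to -0.12 and -0.29 with library totals.

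Of 15 upstream and partner regulators, 9 were higher and 1 lower on day 8 than on day 0, beside 17.7% and 19.4% of all genes, with a median of 0.92 beside 0. HIC2, a repressor that can act on BCL11A, rose by a log2 FC of 2.00 (SE 0.23, adjusted p = 3.09e-05), from 3.64 and 5.23 TPM to 11.8 and 12.2 TPM, and so rose over the same days as BCL11A. TAL1, a DNA-binding partner of GATA1, rose by 1.75 (SE 0.20, adjusted p = 3.51e-05). MYB, a progenitor factor, fell by 1.90 (SE 0.34, adjusted p = 0.000887), and from day 8 to day 12 it fell by 5.62 (SE 0.42, adjusted p = 1.06e-07). It was at 242 and 233 TPM on day 0, 24.4 and 64.3 on day 8 and 0.401 and 0.209 on day 12. KLF1, the erythroid activator of BCL11A and ZBTB7A, which was named after its values were seen, was at 515 and 461 TPM on day 0 and at 848 and 704 TPM on day 8 (log2 FC 1.28, adjusted p = 0.000118). In the step to day 12, 8 of the 15 were higher and 5 lower, beside 23.8% and 33.4% of all genes. EIF2AK1, the heme-regulated kinase (1.26), and TAL1 (1.16) led the higher ones and were at -0.18 and -0.37 on log2(TPM + 1), where none of the 15 was higher and 13 were lower, beside 1407 higher and 8997 lower of all 16784 genes on that scale. LMO2, a bridging partner of TAL1, fell by 2.58 in the same step.

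Of 18 genes of the let-7 axis 15 were tested, and LIN28A, MYCN and MIR100HG were not. From day 0 to day 8, 5 were higher and 4 lower, beside 17.7% and 19.4% of all genes, with a median of -0.28 beside 0. ARID3A, a fetal-type transcription factor, rose by 2.96 (SE 0.68, adjusted p = 0.00418), from 4.48 and 2.19 TPM to 22.5 and 10.8 TPM, and MIRLET7BHG, the host transcript of let-7a and let-7b copies, by 1.82 (SE 0.50, adjusted p = 0.0115), although it was at no more than 0.609 TPM in the 4 libraries and says nothing of the mature microRNA, which was not measured. NR6A1, a nuclear receptor, fell by 1.29 and the nuclease DICER1 by 1.02. Between day 8 and day 12 ARID3B (2.71) and the uridylyltransferase TUT7 (1.94) led 3 higher genes, and DROSHA (-2.61), which starts the processing of microRNAs, and DIS3L2 (-1.92), which degrades uridylated let-7 precursors, led 6 lower ones, beside 23.8% and 33.4% of all genes. On day 8 against day 0 the 15 split into 5 higher and 6 lower with library totals and into 1 and 7 on log2(TPM + 1). Of all 16784 genes, 1538 were higher and 4684 lower with library totals, and 1223 and 6660 on log2(TPM + 1). TRIM71, named after its values were seen, is the gene with the most matches to the let-7 seed of all canonical 3′ UTRs, with 6. It was at no more than 0.377 TPM on days 0, 8 and 12 and was higher in library B by a log2 FC of 2.23 (adjusted p = 2.8e-05).

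The output that these regulators control was read as the share of gamma-globin counts (HBG1 and HBG2) in all beta-like globin counts (with HBB, HBD and HBE1). On days 0 to 8 the share lay between 0.973% and 1.55% in library A and between 0.572% and 0.873% in library B. On day 12 it was 9.25% in library A (95% Wilson interval 9.24% to 9.27%) and 3.87% in library B (3.86% to 3.88%), the intervals covering counting error only. The mean was 0.789 ± 0.286% (SD, n = 2) on day 0, 0.844 ± 0.385% on day 8 and 6.56 ± 3.81% on day 12, so the day 12 libraries were above all others and differed most from each other. HBG1 went from 72.8 and 48.1 TPM on day 0 to 799 and 342 TPM on day 8 and 11999 and 5219 TPM on day 12, a log2 FC of 3.89 (adjusted p = 0.000566) and then 5.23 (SE 0.70, adjusted p = 2.23e-05), and the embryonic gene HBE1 rose by 7.10 (SE 0.94, adjusted p = 2.05e-05) from day 8 to day 12. HBB rose by 3.61 and then by 2.39. HBB, and HBG1 from day 0 to day 8, were named after their values were seen. Library A had the higher gamma share on all 10 days. Of the 10 globin genes, 8 were higher and none lower on day 8 than on day 0, beside 17.7% and 19.4% of all genes, and HBM (5.29) and HBA1 (4.41), genes of the alpha-globin cluster, had the largest rises with TMM. Reads could be split between HBA1 and its close copy HBA2, and between HBG1 and its close copy HBG2, so the value of a single copy is uncertain.

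**Figure D5:**
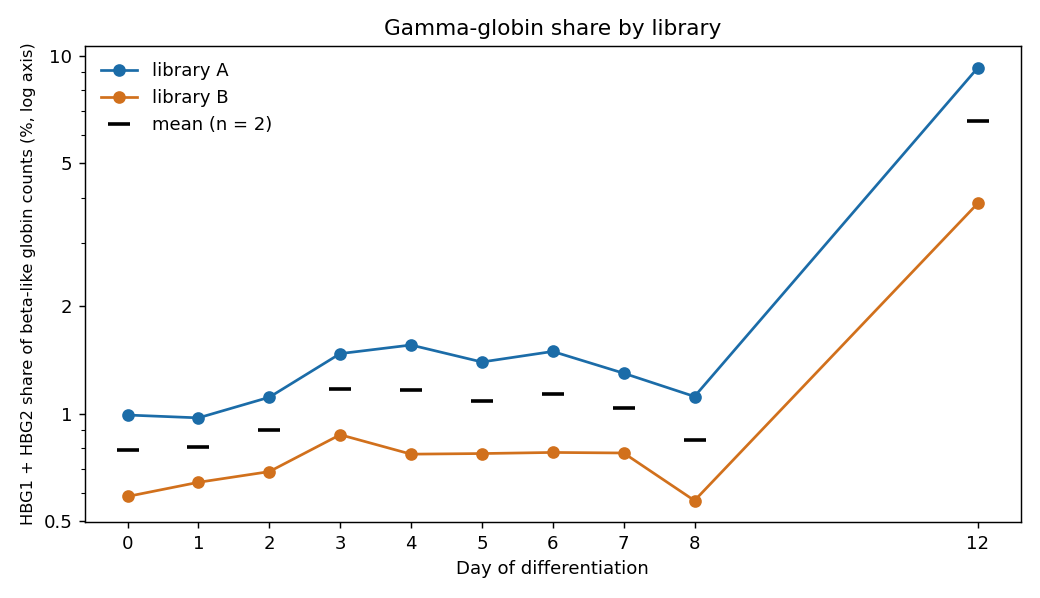
Share of HBG1 and HBG2 in beta-like globin counts (y axis, %, log axis) against the day of differentiation (x axis) in library A, library B and as the mean of both. The share stays below 1.6% until day 8 and is 9.25% and 3.87% on day 12, with library A above library B on each day.

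Among the 10 genes the order of levels changed over the course. On day 0 the mean TPM ran from IGF2BP2 (72.5) and IGF2BP3 (44.5) through ZBTB7A (30.9), IGF2BP1 (16.8), NR2C1 (11.7), NR2C2 (11.2), BCL11A (8.43) and HMGA2 (5.47) to SOX6 (1.23) and LIN28B (0.529), and the genes from ZBTB7A to BCL11A overlapped with their neighbours. On day 8 it ran from IGF2BP2 (66.2) and ZBTB7A (41.4) through IGF2BP3 (19.7), NR2C2 (17.6), BCL11A (15.6), SOX6 (14.2), NR2C1 (11.8) and IGF2BP1 (7.82) to HMGA2 (0.791) and LIN28B (0.0771), with overlap from IGF2BP3 to SOX6. On day 12 IGF2BP2 (117) and ZBTB7A (35.1) stood above the rest, NR2C2 was at 7.30 TPM, SOX6 at 4.84, BCL11A at 3.15, NR2C1 at 3.02, IGF2BP3 at 0.972 and IGF2BP1 at 0.694, and HMGA2 and LIN28B were at 0.0137 and 0.0107 TPM. There was overlap from NR2C2 to NR2C1, between IGF2BP3 and IGF2BP1 and between HMGA2 and LIN28B. With the days ranked by mean TPM, each gene had 9 pairs of days next to each other in rank. The libraries did not overlap in 4 pairs for SOX6 and in 3 for IGF2BP2, IGF2BP3 and NR2C1. They did not overlap in 2 for LIN28B and NR2C2, in 1 for IGF2BP1 and HMGA2 and in 0 for BCL11A and ZBTB7A. Library A was above B on every day for ZBTB7A, and library B above A on 9 of the 10 days for BCL11A. The share of such pairs over all genes was not counted.

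The genes whose pattern was most like that of each member, by Pearson's r of log2 normalised CPM over the 20 libraries among 11788 genes, are given as a description, since libraries of a day share a stage and those of a table share a source. KAT2B (0.98), ERFE (0.98) and JAK2 (0.97) were most like SOX6, ATP7A (0.97), PHKB (0.96) and ABCC5 (0.96) most like BCL11A, and ZNF672, TBPL1 and UBALD2 (0.99, 0.98 and 0.98) most like ZBTB7A. For NR2C2 they were USP49, XK and RAD21 (0.98 each), and for NR2C1 FAN1 (0.91), PLEKHF2 (0.90) and ERAP1 (0.89), the lowest values of any member. CLIP1 and AEN (0.99 each) were among the genes most like IGF2BP2, ALG8, UCHL5 and KIF21A (0.99 each) most like IGF2BP3, OAF (0.98), ACSL5 (0.97) and WASHC5 (0.96) most like IGF2BP1, and SLC10A4 (0.98), UQCRC2 (0.98) and TANGO6 (0.97) most like HMGA2. LIN28B, with a mean of 0.274 TPM, was too low for this comparison.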

How the data were processed

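Transcript tables of 20 poly(A) RNA-seq libraries of HUDEP-2 cells were used. The submitters' processing notes name Trimmomatic 0.38, HISAT2 2.1.0, StringTie 2.1.3b and the hg38 build, and the authors deposited whole-number read counts and TPM per transcript. FPKM columns and a further set of day 0 columns were not used (23 of 63 value columns). Counts were summed by gene symbol and tested with edgeR 4.0.16 in R 4.3.3 (filterByExpr, TMM, quasi-likelihood test with a coefficient for each day, 10 residual degrees of freedom, Benjamini-Hochberg adjustment, threshold 0.05). On simulated data for day 8 against day 0 (15624 genes), 88% of 200 genes changed 4-fold were recovered and 4.35% of calls were false. Every gene was simulated with the same spread between libraries (squared coefficient of variation 0.04) and no difference between library A and library B. These shares thus do not give the power to find changes in the 10 genes.

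Depth was 52131713 to 70358198 counts a library. Alternatives were DESeq2 1.42.0, limma 3.58.1 on log2(TPM + 1) or log2(TPM + 0.1), upper-quartile scaling, TMM without globin or ribosomal RNA genes, library totals, other count filters, a term for the source table, only the days compared and leaving out each library. The test of library B against A, the grouping of BCL11A transcripts by 3′ end and the IGF2BP2 transcript set apart were added after seeing the data. The 10 genes and the 5 lists were chosen with earlier results of these data known. List genes were named by the 2 largest changes in each direction among those that passed. Similar genes were the 3 with the highest Pearson's r, and some genes are not reported here.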

Additional observations from a re-analysis of the deposited data

Results flagged for a closer look

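For 3 genes the library A and library B values of a comparison had opposite signs on the TMM scale, and the difference was not tested. IGF2BP1 had log2 fold changes of 0.068 in library A and -0.0093 in library B for days 4 to 6 against day 0, of 0.043 and -0.76 for day 8 against days 4 to 6, and of 0.11 and -0.77 for day 8 against day 0. IGF2BP3 had 0.073 in library A and -0.14 in library B for days 4 to 6 against day 0. SOX6 had 0.13 in library A and -0.66 in library B for day 12 against day 8.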

How the results depend on the processing

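No paired analysis was possible because the columns carry the day but no replicate number. The source table, as library B against library A, was used as a term in its place. This term does not set apart the separate tables for days 0 to 6, days 7 and 8 and day 12 that library A was drawn from. Of 1232 log2 fold changes of the 10 genes under the alternatives, 1117 kept their direction and side of the threshold, 57 lost and 27 gained a call and 31 turned in direction. The cause was not tested.

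Of the 10 genes, 3 passed for days 4 to 6 against day 0 (2785 of all genes, whose number is given in parentheses after each count), but 1 on log2(TPM + 1), log2(TPM + 0.1) or library totals (3118, 2787 and 2361), 6 with the source table as a term (4809) and 1 to 4 with a library left out (1 without library A of day 0, 959, and 1495 of all genes without library B of day 0). For day 8 against days 4 to 6 it was 3 (3816), with 6 under the term (6104) and 1 to 3 with a library left out (1 without library A of day 8, 464). For day 8 against day 0 it was 7 (6224), with 4 on log2(TPM + 0.1) or library totals (7797 and 6222), 3 with only the days compared (3726) and 4 to 8 with a library left out (4 without library B of day 0 or library A of day 8, 4517 and 3568, and 3947 of all genes without library A of day 0). For day 12 against day 8 it was 6 (9608), with 3 to 6 with a library left out (3 without library B of day 8, 7982), and for any day 7 (11078), with 6 to 8, but 10 under the term (12708) and 9 with DESeq2 (11861). Of the BCL11A transcripts 0 passed from day 0 to day 8, but 1 with DESeq2 or at least 10 counts in every library. That number did not change with a library left out. From day 8 to day 12 it was 0, but not without library A of day 12. The share of all transcripts called under these alternatives was not counted. With 1 library alone the gamma-globin share was 0.587% to 0.991% on day 0, 0.572% to 1.12% on day 8 and 3.87% to 9.25% on day 12.

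On log2(TPM + 1) and log2(TPM + 0.1), ZBTB7A turned to -0.00099 and -0.00059 for day 8 against days 4 to 6 and to -0.25 and -0.26 for day 12 against day 8, IGF2BP1 to -0.12 and -0.13 for days 4 to 6 against day 0, IGF2BP2 to -0.41 and -0.41 for day 8 against days 4 to 6 (both passed, with adjusted p = 0.0146 and 0.0176 in limma) and -0.13 and -0.13 for day 8 against day 0, NR2C1 to -0.26 and -0.27 for day 8 against days 4 to 6 and NR2C2 to -1.21 and -1.32 for day 12 against day 8. With library totals IGF2BP1 turned to -0.057 (days 4 to 6 against day 0), IGF2BP2 to -0.19 and NR2C1 to -0.15 (day 8 against days 4 to 6) and NR2C2 to -0.69 (day 12 against day 8). IGF2BP1 for days 4 to 6 against day 0 was -0.0056 with DESeq2, -0.0039 with no filter and -0.014 with at least 10 counts in every library. With a library left out IGF2BP1 ran from -0.64 to 1.23 for days 4 to 6 against day 0 and from -1.18 to 0.69 for day 8 against day 0 (0.69 without library B of day 0), IGF2BP3 from -0.084 to 0.029 for days 4 to 6 against day 0, SOX6 from -0.79 to 0.21 for day 12 against day 8 (0.21 without library B of day 12) and NR2C2 from -0.15 to 0.31 in that step.

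Of all genes, 2418 passed for day 8 against days 4 to 6 with only the days compared and 5908 on log2(TPM + 1). The higher and lower genes were 2970 and 3254 for day 8 against day 0, but 1538 and 4684 with library totals and 1223 and 6660 on log2(TPM + 1), and 3997 and 5611 for day 12 against day 8, but 1983 and 8127, and 1407 and 8997. Low counts limit what can be said of LIN28B and, from day 8, HMGA2.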
